A study of Mus musculus with 2 samples.

Results

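Fkbp5, Tsc22d3, Per1, Zbtb16, Sgk1, Mt1, Mt2 and Nr3c1 were followed through the cell classes of 2 single-cell RNA-seq libraries of mouse aorta with an abdominal aneurysm. The set is 8 of the 55450 genes in the counts, matched by symbol, and all 8 were found in both libraries. It was chosen by the Fkbp5 level of macrophages, which is higher in the inhibitor library, to see whether other targets of the glucocorticoid receptor share that rise. That difference, and the same contrast in every gene below, is therefore given as a description with no test.

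Both libraries came from the aorta of Apoe-/- mice aged 12 weeks in which angiotensin II (Ang II) had been used to induce the aneurysm, so Apoe loss and Ang II are common to both groups and there is no sample without them. Mice lacking Apoe have high plasma cholesterol, and Ang II infusion in them is a common aneurysm model. The DMSO group, the vehicle control, and the inhibitor group have 1 library each. The titles give only initials, read here as DMSO and inhibitor from the series description, and no source used here gives the inhibitor's name, dose or timing, the number of animals behind a library or the aortic segment of a cell. With 1 library per group, every interval below covers counting error only, and a difference between the libraries cannot be told apart from a difference between animals or preparations.

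Nr3c1 encodes the glucocorticoid receptor, which waits in the cytoplasm bound to Hsp90 and its partner proteins, moves to the nucleus when corticosterone binds, and switches target genes on through glucocorticoid response elements. Fkbp5 is an Hsp90 partner that lowers the receptor's affinity for hormone and is itself a target, so it closes a feedback loop. Tsc22d3 (GILZ), Sgk1, Per1 and Zbtb16 (PLZF) are further targets in many tissues, some of them shared with other steroid receptors, while the metallothioneins Mt1 and Mt2 bind zinc and copper and answer to metals, through the factor Mtf1, as well as to glucocorticoids.

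In GRCm38 (GENCODE M21 annotation) all 8 are protein-coding. Fkbp5 lies on chromosome 17 from 28399094 to 28517527 (minus strand), Tsc22d3 on X from 140539528 to 140600659 (minus), Per1 on 11 from 69095217 to 69109960 (plus), Zbtb16 on 9 from 48654297 to 48836222 (minus), Sgk1 on 10 from 21882184 to 21999903 (plus) and Nr3c1 on 18 from 39410545 to 39519421 (minus). Mt2 (94172664 to 94173568) and Mt1 (94179082 to 94180327) are neighbours on the plus strand of chromosome 8 with 5513 bases between them. The longest stretch shared exactly by a transcript of Mt1 and a transcript of Mt2 is 20 bases. Fkbp5 overlaps 4 other annotated genes, among them AC154912.3 on its own strand, and Mt2 overlaps the antisense gene Gm45774. No source used here says whether the counting used strand.

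The 3 stretches below are shown because, among the windows searched, only 1 of Sgk1 held the full receptor element, and because Mt1 and Mt2 are read side by side throughout. Zbtb16 and Nr3c1 had no window and were not searched. The stretches are taken from the RefSeq promoter table (GRCm38.p6, plus strand, 5′ to 3′), within the 250 bases before an annotated start. Capitals mark the motif match.
Sgk1, chr10:21993681-21993735: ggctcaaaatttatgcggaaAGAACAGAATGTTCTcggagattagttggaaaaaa
Mt2, chr8:94172368-94172617: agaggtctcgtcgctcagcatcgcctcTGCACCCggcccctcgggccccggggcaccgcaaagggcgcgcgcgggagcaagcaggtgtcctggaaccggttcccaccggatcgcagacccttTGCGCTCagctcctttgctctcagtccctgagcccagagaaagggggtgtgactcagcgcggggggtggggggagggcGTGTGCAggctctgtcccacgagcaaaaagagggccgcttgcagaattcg
Mt1, chr8:94178839-94179081: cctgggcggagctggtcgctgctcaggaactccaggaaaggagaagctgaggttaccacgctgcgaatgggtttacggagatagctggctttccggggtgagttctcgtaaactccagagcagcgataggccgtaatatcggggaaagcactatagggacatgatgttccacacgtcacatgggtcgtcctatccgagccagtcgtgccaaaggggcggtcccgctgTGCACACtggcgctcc
The capitals in Sgk1 match the element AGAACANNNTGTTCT. Its half-sites read the same on both strands, while the spacer NNN can be any bases. The element lies 189 bases before the start of 1 of the gene's 6 annotated start sites. Of 32851 promoter windows of this length, 3 held it (0.00913%). In Mt1 and Mt2 the capitals are the core of the metal response element, TGCACNC or TGCGCNC on either strand, found 3 times in the Mt2 window and 1 time in the Mt1 window. At least 1 such core was found in 21.4% of all windows and 3 or more in 1.26%. The table holds 1 window for each of these 2 genes, where GENCODE M21 holds 3 transcripts of Mt1 and 2 of Mt2. Cores outside the window would be missed, so 3 and 1 are not read as a difference between the genes. The table holds 1 window for Fkbp5, 3 for Tsc22d3 and 2 for Per1; none of these held the full element, and AGAACA alone, on either strand, was in 16.1% of all windows and in 1 of the 3 of Tsc22d3. A match is a string of letters in these windows and not a shown binding site.

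The DMSO library holds 9125 barcodes and 101139161 UMIs and the inhibitor library 8149 barcodes and 79648307 UMIs, with 16 barcode sequences present in both. After filtering, 8411 and 7417 cells remained. Clusters were named from marker genes, and the 6 classes of 100 cells or more on both sides were compared: smooth muscle-like (770 cells in DMSO, 3108 in inhibitor), fibroblast-like (2004 and 1808), macrophage-like (1666 and 664), endothelial-like (708 and 418), Schwann-like (452 and 226) and dendritic-like cells (353 and 174). Adipocyte-like (708 and 82), T cell-like (239 and 67), neutrophil-like (238 and 52) and lymphatic endothelial-like cells (134 and 88) are described by level. Defining markers were present in each of these 10 classes; Cd68, for example, was at 769 and 613 CPM (UMIs per 1000000 UMIs of the class) in the macrophage-like class and Myh11 at 3044 and 4607 in the smooth muscle-like class.

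Fkbp5 in macrophage-like cells, the value that selected the set, stood at 75.6 CPM in DMSO (95% Poisson interval 71.1 to 80.3) and 164 in inhibitor (153 to 176). The inhibitor/DMSO ratio was 2.17, with an exact 95% counting interval of 1.98 to 2.38. This is a log2 ratio of 1.07, where 5 CPM are added to each level, and 99.5% of the 6491 measured genes of the class had a lower one. Cells were also thinned to 2000 UMIs, which leaves out 64 of 1666 and 43 of 664 shallower ones. Of the remaining 1602 and 621 cells, 15% in DMSO and 29.3% in inhibitor kept an Fkbp5 UMI, against 37.6% and 60.1% of all cells unthinned, at median depths of 6955.5 and 5870.5 UMIs. None of the classes is known to lack Fkbp5, so no background share from free RNA can be read from it. The 9 smooth muscle markers, none at 0, summed to 394 and 996 CPM in macrophage-like cells, or 1.12% and 2.04% of their level in smooth muscle-like cells; Fkbp5 in those cells was at 44.8 and 48.3 CPM, below the macrophage level in both libraries.

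**Figure D1:**
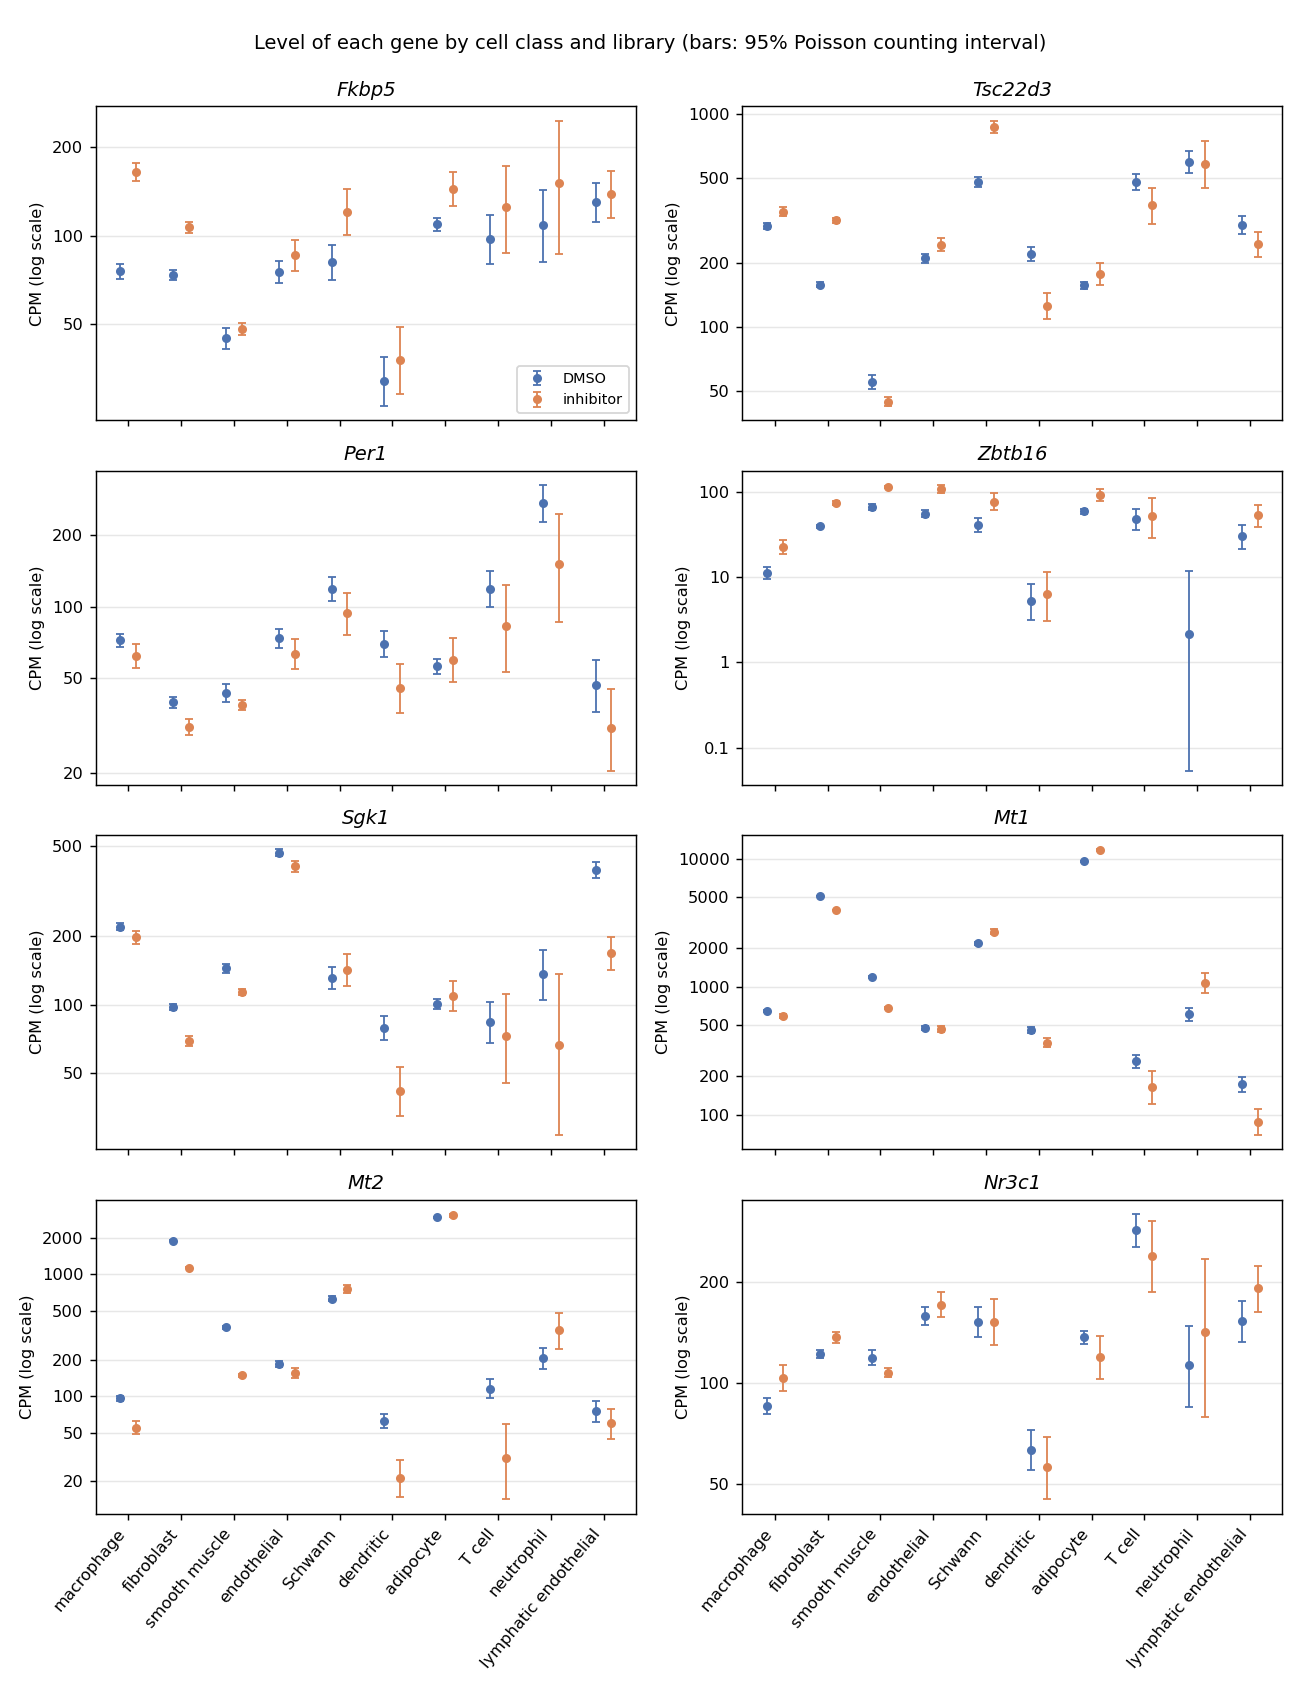
Level of each gene (CPM, log axis) in 10 cell classes, DMSO in blue and inhibitor in orange, 1 library each, with 95% Poisson counting intervals; a level of 0 is not drawn. Fkbp5 in macrophage-like cells goes from 75.6 to 164 CPM, and Mt1 and Mt2 are highest in adipocyte-like cells in both libraries.

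The macrophage-like class is made of unlike clusters, and among the 3 with at least 50 cells on both sides, the limit for a cluster ratio here, Fkbp5 was highest and differed most in 1. Cluster 1, led by C1qb, Pf4 and Mrc1, genes of resident macrophages, held 609 of the 1666 DMSO cells and 381 of the 664 inhibitor cells, and its Fkbp5 level was 140 and 267 CPM, a ratio of 1.9 (interval 1.68 to 2.16). In cluster 7, led by Ccr2 and Chil3, genes of monocytes, it was 66.5 and 101 CPM (ratio 1.52, 1.2 to 1.92). In cluster 9, led by Spp1, Gpnmb and Trem2, genes of lipid-loaded macrophages, it was 30 and 35.7 CPM, a ratio of 1.19 whose interval (0.804 to 1.72) holds 1. The ratio of the class, 2.17, was above that of each of these 3 clusters, cluster 1 holding a larger part of the inhibitor cells. With equal weight for each cluster of at least 20 cells on both sides, a limit that takes in more than these 3, the log2 ratio was 0.75. Without cluster 1 it was 0.72. Both values are past the fold of 1.5. The second still pools unlike clusters, so it too can carry cluster makeup.

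Outside macrophages Fkbp5 passed the call in none of the other 5 compared classes, though its log2 ratio was above 0 in all 6 and in all 10 classes with a level. In smooth muscle-like cells that sign turned as a mean over cells (-0.15) and without cluster 12 (-0.11), and in dendritic-like cells it was -0.02 without cluster 13. A gene is called here when its ratio is at least 1.5 in either direction and its counting interval leaves out 1, among genes that reach 20 CPM on either side and 20 UMIs in sum. Fibroblast-like cells (73.5 and 107 CPM, ratio 1.45) and Schwann-like cells (81.2 and 120 CPM, ratio 1.48) were just under that fold; the Schwann-like ratio crossed it with stricter limits on mitochondrial UMIs (1.51) or genes per cell (1.54), at either other clustering resolution (1.5) and without cluster 22 (1.65). Dendritic-like (32.1 and 37.9), endothelial-like (75.3 and 85.6) and smooth muscle-like cells (44.8 and 48.3) had intervals that hold 1. In DMSO the macrophage level could not be separated from its neighbours in the order of classes, endothelial-like and Schwann-like cells, by counting error. In the inhibitor library macrophage-like cells were first of 10, with an interval that overlaps that of neutrophil-like cells (151 CPM). Within fibroblast-like cells the ratio was 1.82 in cluster 11 (60.3 and 110 CPM) and 1.57 in cluster 10, while clusters 3 and 6, which already stood at 119 and 128 CPM in DMSO, had ratios of 1.05 and 0.873.

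Read over the whole set, 2 of the 8 genes were called higher and 1 lower in macrophage-like cells, where 3.39% of measured genes were called higher and 4.08% lower; Fkbp5 is 1 of the 2 and chose the set, so nothing is read from that count. The median log2 ratio of the 8 was 0.04, beside 0.01 over all measured genes of the class. Smooth muscle-like cells had 1 higher and 2 lower (3.48% and 8.31% of measured genes), fibroblast-like cells 2 and 1 (4.99% and 7.6%), endothelial-like cells 1 and 0 (4.57% and 8.85%) and Schwann-like cells 2 and 0 (5.44% and 5.84%). Dendritic-like cells had 0 higher and 4 lower of the 7 measured (3.58% and 9.76%), and the median there was -0.45 against -0.06 over all measured genes. Of 48 gene and class pairs, 16 were called, and the direction depended on the gene: Zbtb16 was called higher in 5 classes, Mt2 lower in 4, and Nr3c1 in none.

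**Figure D2:**
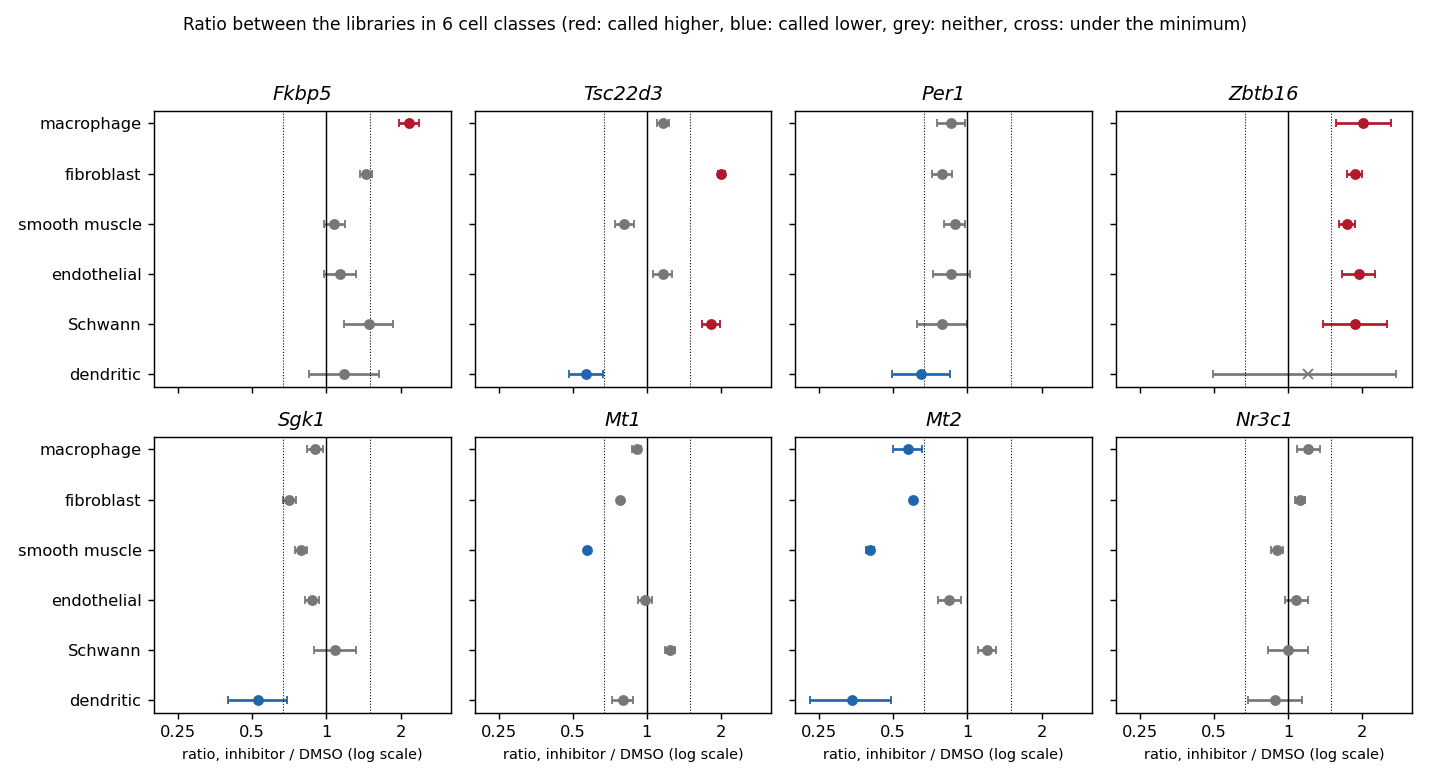
Inhibitor/DMSO ratio (log axis) of each gene in the 6 compared classes with its 95% counting interval; dotted lines mark a fold of 1.5, red and blue points were called higher and lower, and the cross is under the minimum level. Zbtb16 is red in 5 of 6 classes, Mt2 is blue in 4, and Fkbp5 is red only in macrophage-like cells.

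Nr3c1, the receptor gene, differed little between the libraries. In macrophage-like cells it was at 85.4 CPM in DMSO and 103 in inhibitor, a ratio of 1.21 (1.09 to 1.34), and its log2 ratios over the 6 classes ran from -0.16 to 0.26. T cell-like cells held the highest level in both libraries (285 and 239 CPM) and dendritic-like cells the lowest (63.3 and 56.2). Within endothelial-like cells it was higher in cluster 15, led by Cytl1 and the arterial gene Gja5 (77.2 and 119 CPM, ratio 1.54), and in cluster 24, led by Emcn and Plvap (126 and 208, ratio 1.65), but not in the capillary-like cluster 8 (250 and 254).

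Zbtb16, a zinc-finger transcription factor, was the gene most widely higher. It went from 55.6 to 108 CPM in endothelial-like cells (ratio 1.94), from 66.3 to 115 in smooth muscle-like cells (1.73), from 39.3 to 73.3 in fibroblast-like cells (1.87), from 41 to 76.9 in Schwann-like cells (1.87) and from 11.2 to 22.6 in macrophage-like cells (2.03, interval 1.57 to 2.61). The macrophage value rests on 153 and 108 UMIs and is close to the minimum of 20 CPM. Of the thinned cells, 2.5% and 6.12% in the macrophage-like class kept a Zbtb16 UMI, beside 1.15% and 0.581% of 348 and 172 dendritic-like cells, whose median depths were 9394 and 8918 UMIs. In neutrophil-like cells 1 UMI was counted in DMSO and none in 52 cells of the inhibitor library (95% upper limit 34.8 CPM).

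Among clusters the endothelial-like ones were alike: Zbtb16 had ratios of 2.31, 2.2 and 2.42 in clusters 8, 15 and 24. In smooth muscle-like cells cluster 12, led by Igfbp2, Ankrd1 and Spp1, went from 33.5 to 73.8 CPM (2.2), while clusters 0 and 5, led by Myh11 and other contractile genes, had ratios of 1.23 and 1.22. Cluster 0 held 342 of 770 smooth muscle-like cells in DMSO and 2169 of 3108 in inhibitor, and its DMSO level of Zbtb16 was 103 CPM. With clusters weighted equally the smooth muscle-like, fibroblast-like and macrophage-like ratios were 1.28, 1.35 and 1.52, the first 2 under the fold and the last under the minimum level, and without cluster 12 the smooth muscle-like ratio was 1.23. Without cluster 22 the Schwann-like ratio was 1.47. In macrophage-like cluster 1 it was 22.9 and 39.6 CPM (1.73, interval 1.25 to 2.39), and in clusters 7 and 9 it stayed under 8 CPM.

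Tsc22d3, which encodes the leucine zipper protein GILZ that restrains inflammatory transcription factors, did not share the macrophage call of Fkbp5. In macrophage-like cells it was at 300 and 349 CPM, a ratio of 1.16 (1.1 to 1.23). Cluster 1 had 456 and 525 CPM (1.15), cluster 7 had 283 and 223 (0.788) and cluster 9 had 220 and 147 (0.667), and without cluster 1 the log2 ratio of the class was -0.13. Its calls lay elsewhere: it was higher in fibroblast-like cells (158 and 318 CPM, ratio 2, interval 1.93 to 2.08) and Schwann-like cells (480 and 875 CPM, 1.82, interval 1.67 to 1.99), and lower in dendritic-like cells (221 and 126 CPM, 0.568, interval 0.483 to 0.664). In DMSO neutrophil-like cells held the highest level (600 CPM) and in inhibitor Schwann-like cells did, and smooth muscle-like cells were lowest in both.

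The fibroblast-like and Schwann-like ratios of Tsc22d3 differ in what lies beneath them. In the 6 fibroblast-like clusters large enough for a ratio it ran from 0.867 to 1.63, below the ratio of 2 for the class. Its interval was above 1 in clusters 2, 3, 6, 10 and 11 and held 1 in cluster 26. Only cluster 10 was called higher (1.63, interval 1.42 to 1.86). Clusters 30 and 33, with 7 and 1 inhibitor cells, have no ratio. Cluster 3, led by Angptl7, Fmod and Hsd11b1, had the highest fibroblast level in DMSO (439 CPM) and held 162 of 2004 cells there and 763 of 1808 in inhibitor, where cluster 2 (Mmp3, Saa3, Timp1; 119 CPM in DMSO) held 685 and 272. Weighting the clusters equally gave 1.25 and leaving out cluster 3 gave 1.43, both under the fold. In Schwann-like cells it was 2.01 in cluster 20 and 1.81 in cluster 22, and 1.21 in cluster 25, whose leading genes include the myelin genes Mbp and Prx.

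**Figure D3:**
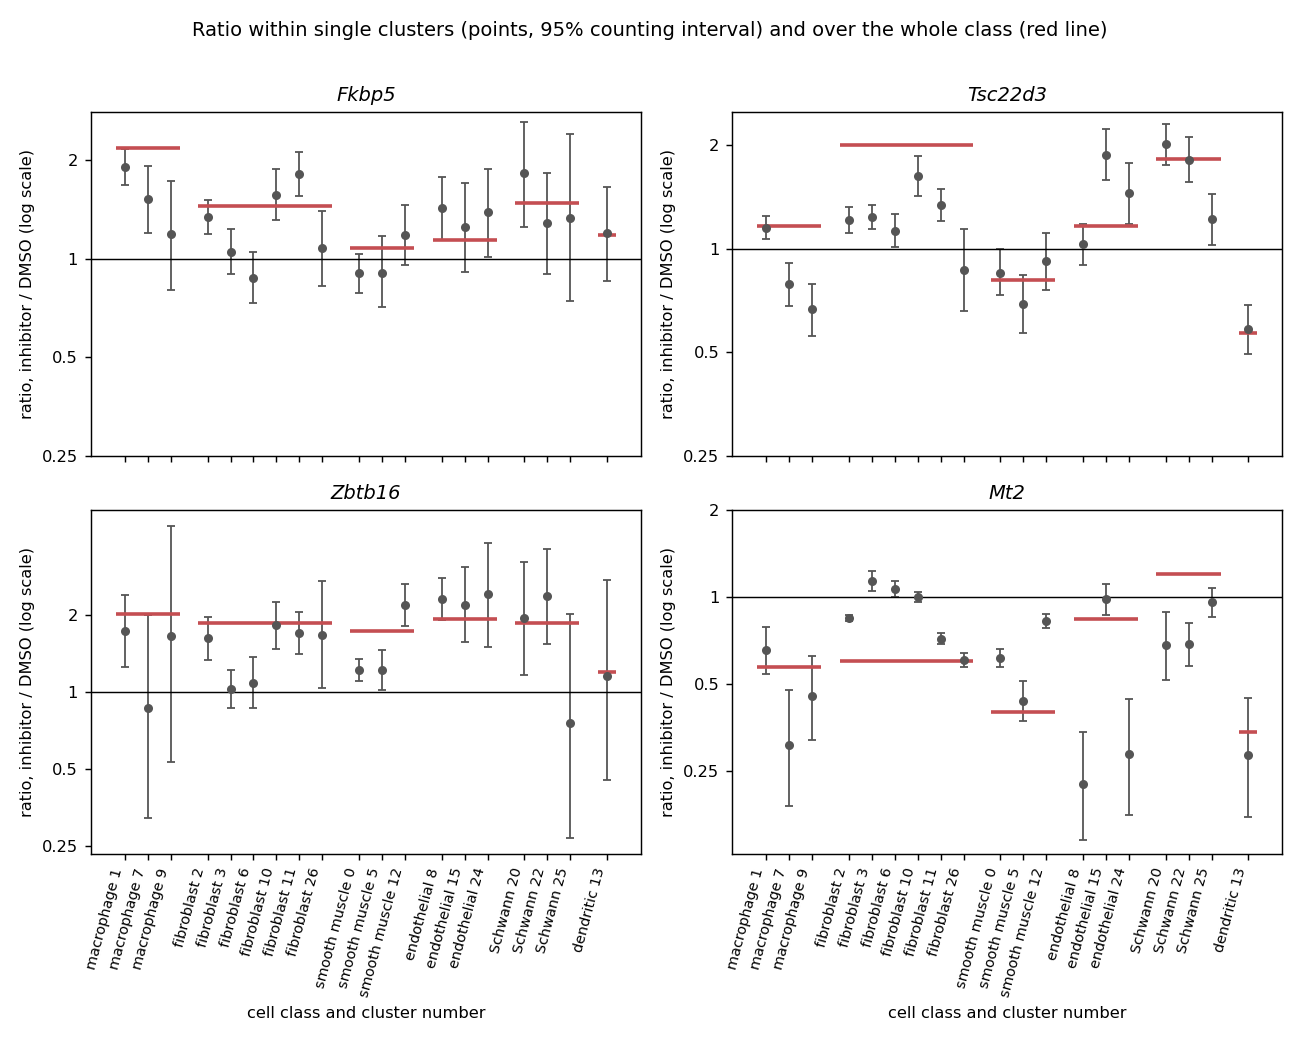
Inhibitor/DMSO ratio (log axis) within each cluster of at least 50 cells in each library (grey points, 95% counting interval) and over the whole class (red line) for Fkbp5, Tsc22d3, Zbtb16 and Mt2. In fibroblast-like cells the red line of Tsc22d3 (2) lies above all 6 clusters and that of Mt2 (0.6) below all 6, while the endothelial-like clusters of Zbtb16 lie at 2.2 to 2.42.

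Per1, a repressor of the circadian clock that hormone induces quickly, was lower or close to even. Its log2 ratio was below 0 in all 6 compared classes, from -0.57 to -0.15, and in 17 of the 19 clusters with a ratio. In macrophage-like cells it was at 72.4 and 62.1 CPM (ratio 0.857). The only call was in dendritic-like cells (69.9 and 45.4 CPM, 0.65, interval 0.492 to 0.849). That call ended when ratios were centred on the median gene of the class (0.678) and its direction turned (log2 ratio 0.26) when the 2 dendritic-like clusters were weighted equally, cluster 31 being led by Ccr7 and holding 38 and 22 cells. The highest level in either library was in neutrophil-like cells (273 and 151 CPM). Without cluster 1 the macrophage-like ratio was 0.626, which would be a call.

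Sgk1, a kinase that controls ion channels and cell survival, was highest in endothelial-like cells in both libraries (467 and 408 CPM, ratio 0.874). Macrophage-like cells had 221 and 198 CPM (0.897, interval 0.833 to 0.966), and within them the Spp1-led cluster 9 was the only 1 of the 3 clusters that was higher (352 and 431 CPM, 1.22). Dendritic-like cells were called lower (78.7 and 41.7 CPM, 0.529, interval 0.398 to 0.695). Fibroblast-like cells stood at 97.8 and 69.1 CPM (0.707) and would be called lower with clusters weighted equally (0.591) or without cluster 3 (0.6). In lymphatic endothelial-like cells, which had too few cells to be compared, Sgk1 was at 393 and 169 CPM (0.43, interval 0.356 to 0.517). The log2 ratio of Sgk1 was above 0 in only 1 of the 6 classes, Schwann-like cells (131 and 142 CPM), where each of the 3 clusters had a ratio below 1. A link between the element shown above and these values was not tested.

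The metallothioneins Mt1 and Mt2 had log2 ratios below 0 in 5 of the 6 compared classes. Those of Fkbp5 and Zbtb16 were above 0 in all 6, with Zbtb16 under the minimum level in dendritic-like cells. Mt2 was called lower in 4 classes: smooth muscle-like cells (369 and 149 CPM, ratio 0.403), fibroblast-like cells (1888 and 1133, 0.6), macrophage-like cells (95.8 and 55, 0.574, interval 0.501 to 0.655) and dendritic-like cells (63 and 21.5, 0.341). Mt1 was called lower in smooth muscle-like cells only (1190 and 682 CPM, 0.573) and stood at 650 and 591 CPM in macrophage-like cells (0.909). In fibroblast-like cells Mt1 was at 5113 and 3972 CPM (0.777). Its ratio there was above 1 in clusters 2, 3, 6 and 10 (1.02 to 1.16) and below 1 in clusters 11 and 26 (0.777 and 0.772). In macrophage-like clusters 1, 7 and 9 the Mt2 ratios were 0.656, 0.309 and 0.455, all with intervals below 1, and those of Mt1 were 0.966, 0.835 and 0.768. Schwann-like cells were the only compared class in which both were above their DMSO level (Mt1 2181 and 2701, Mt2 632 and 758), but Mt2 was below it in each of the 3 Schwann-like clusters (0.684, 0.689 and 0.962), and without cluster 25 the log2 ratios of the class were -0.05 for Mt1 and -0.48 for Mt2.

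Cluster makeup bears on several of these values. The fibroblast-like Mt2 ratio of 0.6 was below that of the 6 clusters large enough for a ratio (0.606 to 1.14), and became 0.852 with equal weights and 0.736 without cluster 3, whose Mt2 level was 449 and 511 CPM beside 2239 and 1897 in cluster 2. In smooth muscle-like cells the Mt2 ratio of 0.403 was likewise below that of clusters 0, 5 and 12 (0.617, 0.437 and 0.827), and equal weights gave 0.681 for Mt2 and 0.709 for Mt1, and without cluster 12 the Mt1 ratio was 0.706. The endothelial-like ratios (Mt1 0.985, Mt2 0.843) cover clusters that differ: cluster 8 had Mt2 at 121 and 27.5 CPM (0.227) and cluster 24 at 189 and 54.5 (0.288), whereas cluster 15 had 250 and 246 (0.984). Without cluster 15 the ratios were 0.339 for Mt1 and 0.246 for Mt2. Without cluster 22 the Schwann-like ratios were 1.55 for Mt1 and 1.52 for Mt2.

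Levels of both metallothioneins were highest in adipocyte-like cells (Mt1 9546 and 11631 CPM, Mt2 2942 and 3053), then in fibroblast-like and Schwann-like cells, with no overlap of counting intervals between these 3. In smooth muscle-like cells the 9 fibroblast markers summed to 13920 CPM in DMSO and 5928 in inhibitor (22% and 9.72% of the fibroblast-like level, none at 0). In macrophage-like cells the same sum was 1209 and 784 CPM, and the 10 adipocyte markers summed to 1144 and 644, with 0 and 1 of them at 0. In fibroblast-like cells the adipocyte sum was 620 and 291 CPM, and in dendritic-like cells it was 480 and 89.6 (1 at 0 in inhibitor), with fibroblast markers at 1037 and 769. In endothelial-like cells, which also express some of them such as Fabp4, the adipocyte sum was 17829 and 14363 CPM. Their part in the metallothionein values was not tested. The neutrophil-like Mt1 level of 1076 CPM in inhibitor, beside 613 in DMSO, rests mostly on 1 of 52 cells, which held 78.9% of its UMIs there.

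Over the 20 class and library values, log2 levels of Mt1 and Mt2 had a Pearson correlation of 0.928, the highest among the 28 gene pairs. Fkbp5 correlated at 0.606 with Tsc22d3, 0.58 with Nr3c1, 0.094 with Zbtb16 and 0.079 with Mt1. These are descriptions, since the 20 values come from 2 libraries and share their depth. Among 11347 other genes the profiles most like Fkbp5 were those of AC154912.3 (0.794), which overlaps it on the same strand, Ubqln4 (0.763) and Gm28875 (0.744). For Zbtb16 they were Ube3a (0.906), Dnaja4 (0.903) and Rexo2 (0.895), for Tsc22d3 Nktr (0.859), Smox (0.84) and Wdfy2 (0.825), and for Per1 Mbd6 (0.945), Mgea5 (0.937) and Cpeb2 (0.903). Sgk1 was most like Scarf1 (0.838), Ifi203-ps (0.833) and Mrtfb (0.832), and Nr3c1 most like Aak1 (0.885), Dcaf1 (0.882) and 1300002E11Rik (0.882). Tnfaip6, made by stromal cells in inflammation, came first for both Mt1 (0.888) and Mt2 (0.893), followed by Gsn (0.883) and C4b (0.872) for Mt1 and by Nav3 (0.884) for Mt2.

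Other textbook targets of the receptor were split in macrophage-like cells. Of 26 measured genes of a list of 40, 3 were called higher and 4 lower, where 3.39% and 4.08% of all measured genes were. Their median log2 ratio was -0.06, against 0.01 over all genes. Cd163, a scavenger receptor for haemoglobin that glucocorticoids induce in macrophages, went from 68.8 to 292 CPM (ratio 4.25, interval 3.91 to 4.62), Sult1a1, a sulfotransferase, from 23.4 to 57.1 (2.44) and Klf9, a transcription factor, from 83 to 143 (1.72). Dusp1, a phosphatase of MAP kinases, went from 949 to 451 CPM (0.475), Zfp36, which destabilises cytokine transcripts, from 525 to 264 (0.503), Angptl4 from 35.9 to 10.9 (0.303) and Nfkbia from 909 to 598 (0.658).

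Within the resident-like cluster 1 the 3 higher targets were still past the fold: Cd163 at 222 and 657 CPM (ratio 2.95), Klf9 at 116 and 221 (1.91) and Sult1a1 at 62.7 and 111 (1.77). In clusters 7 and 9 Cd163 and Sult1a1 were under the minimum level and Klf9 had ratios of 1.25 and 1.08. Dusp1 was lower in all 3 clusters (0.522, 0.409 and 0.417), and so was Zfp36 (0.525, 0.505 and 0.469). In cluster 1 as a whole 5.12% of 6715 measured genes were called higher and 5.79% lower. In the other classes this list gave 2 higher and 5 lower of 32 in smooth muscle-like cells (3.48% and 8.31% of all measured genes), 2 and 9 of 30 in fibroblast-like (4.99% and 7.6%) and 2 and 8 of 28 in endothelial-like cells (4.57% and 8.85%). It gave 5 and 9 of 31 in Schwann-like (5.44% and 5.84%) and 0 and 5 of 21 in dendritic-like cells (3.58% and 9.76%).

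Of 15 measured genes for hormone supply and for the proteins that load and hold the receptor, 4 were called higher in macrophage-like cells and 0 lower, where 3.39% and 4.08% of all measured genes were: Hsp90ab1 (1740 and 2938 CPM, ratio 1.69), Fkbp4, the counterpart of Fkbp5 on Hsp90 (65 and 128, 1.97), Stip1 (76.1 and 137, 1.8) and Hspa8 (1538 and 2313, 1.5). Hsp90aa1 (636 and 949 CPM, 1.49), Ptges3 (164 and 203, 1.23) and Dnajb1 (85.1 and 62.3, 0.732) did not pass. Fkbp4 and Stip1 were called higher in all 6 classes. The other 5 classes gave 7 higher and 1 lower of 15 (smooth muscle-like), 5 and 0 of 17 (fibroblast-like), 5 and 0 of 16 (endothelial-like), 4 and 0 of 14 (Schwann-like) and 3 and 1 of 14 (dendritic-like). In those classes 3.48% to 5.44% of all measured genes were called higher and 5.84% to 9.76% lower. Hsd11b1, the enzyme that regenerates active hormone inside cells, was called higher in fibroblast-like cells (72.7 and 152 CPM, 2.09), and it is a leading gene of cluster 3. Several of these partners are also induced by heat shock, and a list of 12 further heat shock genes was set beside them. In macrophage-like cells 6 of 10 measured were called higher and 1 lower, among them Hspb1 (45.5 and 321 CPM, 7.05) and, lower, Hspa1a (368 and 182, 0.494). Those without a call were Hspa1b (0.75), Bag3 (0.805) and Hsf1 (1.25). That list gave 10 higher and 0 lower of 11 in smooth muscle-like, 7 and 0 of 10 in fibroblast-like, 7 and 1 of 11 in endothelial-like, 4 and 1 of 9 in Schwann-like and 7 and 2 of 11 in dendritic-like cells; its part in the Fkbp5 level was not tested.

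**Figure D4:**
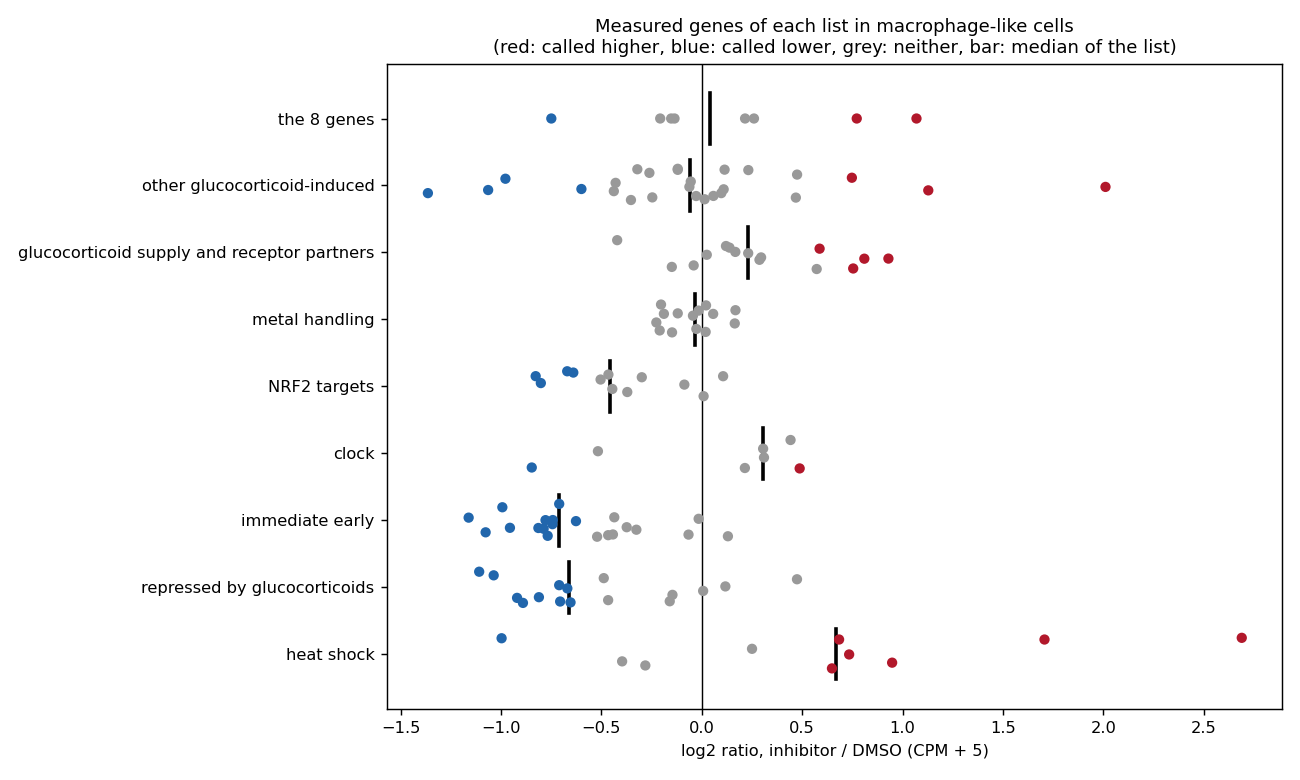
Log2 inhibitor/DMSO ratio, with 5 CPM added, of each measured gene of 9 groups in macrophage-like cells; red and blue points were called higher and lower and black bars are medians. The medians of the immediate early genes (-0.71) and of genes repressed by glucocorticoids (-0.66) lie left of 0, and that of the heat shock genes (0.67) right of it.

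Of 16 measured genes that glucocorticoids hold down, 9 were called lower in macrophage-like cells and 0 higher, where 4.08% and 3.39% of all measured genes were, and the median log2 ratio was -0.66. They include the cytokines Il1b (191 and 90.5 CPM, ratio 0.474) and Tnf (162 and 101, 0.624), the chemokines Cxcl10 (148 and 75.7, 0.512), Ccl4 (514 and 291, 0.566) and Cxcl1 (37.6 and 18, 0.478), the adhesion molecules Icam1 (0.599) and Vcam1 (0.585), and Ptgs2 (0.565). The count also holds Mmp3 (36.4 and 14.2 CPM), which stood at 2319 and 1493 CPM in fibroblast-like cells. Fibroblast markers were in macrophage-like cells at 1.91% and 1.28% of their fibroblast-like level, and Mmp3 did not exceed that share. Whether its UMIs there are background was not tested. Cluster 1 gave 7 lower and 0 higher of 16. The counts were 8 lower and 0 higher of 10 in smooth muscle-like cells (8.31% of all measured genes lower) and 9 and 0 of 12 in fibroblast-like cells (7.6%). In smooth muscle-like cells the fibroblast markers also went from 22% to 9.72% of their fibroblast-like level, and Mmp3, Cxcl1, Ccl2 and Icam1, which are among the 8, were higher in fibroblast-like cells in both libraries. Cluster 12 held 298 of 770 smooth muscle-like cells in DMSO and 184 of 3108 in inhibitor, and the makeup of fibroblast-like cells differed as given above; the part of either in these counts was not tested. The other counts were 4 and 1 of 9 in endothelial-like (8.85%), 6 and 0 of 8 in Schwann-like (5.84%) and 8 and 1 of 13 in dendritic-like cells (9.76%), where the higher gene was Ccl5 (300 and 511 CPM). The higher gene in endothelial-like cells was Vcam1 (426 and 706 CPM). Mmp3 was among the lower genes in endothelial-like (53.65 and 19.68 CPM), Schwann-like (33.91 and 20.88) and dendritic-like cells (26.82 and 8.836). Fibroblast markers there stood at 6.35% and 2.23%, 8.47% and 7.13%, and 1.64% and 1.26% of their fibroblast-like level. Mmp3 did not exceed those shares of its own fibroblast-like level, and whether its UMIs are background was not tested.

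Immediate early genes answer within minutes to growth factors and to tissue dissociation. Among 21 measured in macrophage-like cells 12 were called lower and 0 higher (4.08% and 3.39% of all measured genes), and the median was -0.71; Fosb stood at 451 and 199 CPM (ratio 0.441), Nr4a1 at 179 and 87.4 (0.488) and Klf2 at 499 and 255 (0.511). Elsewhere the calls were 9 lower and 2 higher of 20 (smooth muscle-like), 12 and 0 of 22 (fibroblast-like), 14 and 0 of 21 (endothelial-like), 11 and 0 of 22 (Schwann-like) and 18 and 0 of 22 (dendritic-like), where 5.84% to 9.76% of all measured genes were called lower and 3.48% to 5.44% higher. Per1, Sgk1, Dusp1, Zfp36 and Nfkbia are known both as receptor targets and as rapidly induced genes, and the part of this response in their values was not tested.

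Genes of metal handling were set beside the metallothioneins. In macrophage-like cells none of the 14 measured was called in either direction, and the median was -0.04. Smooth muscle-like cells had 0 higher and 2 lower of 12, where 3.48% and 8.31% of all measured genes were. The 2 were Slc39a1, a zinc importer, at 92.7 and 53.8 CPM, and Ftl1 at 552 and 333. Endothelial-like cells had 0 and 3 of 15 (4.57% and 8.85%), namely Mtf1 at 31.1 and 20.7, Slc39a1 and Slc39a14. Fibroblast-like cells had 1 and 1 of 12 (4.99% and 7.6%), Schwann-like cells 1 and 1 of 15 (5.44% and 5.84%), and dendritic-like cells 0 and 0 of 11 (3.58% and 9.76%). The list's median was -0.27 in smooth muscle-like cells, against -0.05 over all measured genes. It was -0.1 against -0.03 in endothelial-like, 0.01 against 0.005 in fibroblast-like, 0.03 against 0.03 in Schwann-like and -0.11 against -0.06 in dendritic-like cells. The higher gene in Schwann-like cells was Mt3, a related metallothionein (143 and 288 CPM, ratio 2.02). Of 12 measured targets of NRF2, the factor of the oxidative stress response, 4 were called lower in macrophage-like cells and 0 higher, where 4.08% and 3.39% of all measured genes were. The 4 were Slc7a11, Gsr, Prdx1 and Txnrd1 (0.51 to 0.64). Slc7a11 and Gsr were under the minimum in cluster 1 (at most 10.7 CPM) and had ratios of 1.01 and 0.907 in cluster 9, while in cluster 7 their ratios were 0.367 and 0.607 and that of Txnrd1 was 0.417. Txnrd1 had ratios of 0.66 in cluster 1, a call, and 0.902 in cluster 9. Prdx1 had ratios of 0.733, 0.717 and 0.724 in clusters 1, 7 and 9, none of them a call. The other classes had 0 higher and 1 lower of 10 (smooth muscle-like), 0 and 0 of 11 (fibroblast-like), 0 and 1 of 9 (endothelial-like), 0 and 1 of 9 (Schwann-like) and 2 and 2 of 10 (dendritic-like). In those classes 3.48% to 5.44% of all measured genes were called higher and 5.84% to 9.76% lower.

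Clock genes were set beside Per1. Per2, its close relative, was called higher in smooth muscle-like (28 and 53.6 CPM, ratio 1.92), fibroblast-like (16.4 and 26.4, 1.61), endothelial-like (23 and 40.4, 1.75) and Schwann-like cells (14.2 and 31.3, 2.21), in each of which the log2 ratio of Per1 was below 0. In macrophage-like cells 1 of 7 measured clock genes was called higher (Bhlhe41, 13.8 and 21.3 CPM) and 1 lower (Nfil3, 61.2 and 31.8). The list gave 2 higher and 2 lower of 13 in smooth muscle-like, 5 and 1 of 13 in fibroblast-like, 3 and 0 of 11 in endothelial-like, 2 and 0 of 13 in Schwann-like and 0 and 1 of 3 in dendritic-like cells. Of all measured genes, 3.39% were called higher and 4.08% lower in macrophage-like cells. In the other classes the shares were 3.48% to 5.44% and 5.84% to 9.76%.

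Classes under the limit for comparison are given by level. In adipocyte-like cells Fkbp5 was at 109 and 144 CPM (ratio 1.32, interval 1.14 to 1.52), Zbtb16 at 59 and 92.2 (1.56, 1.3 to 1.87) and Tsc22d3 at 157 and 178 (1.13). Lymphatic endothelial-like cells had Zbtb16 at 30.1 and 52.9 CPM (1.76, 1.13 to 2.75), and their Fkbp5 ratio was 1.06 (0.836 to 1.35). In T cell-like cells Fkbp5 was at 97.6 and 125 CPM (1.28) and Tsc22d3 at 480 and 374 (0.779), and Mt2 was at 116 and 31.2 CPM (0.269, 0.12 to 0.527, from 128 and 9 UMIs). Neutrophil-like cells had 51 and 16 Fkbp5 UMIs, and a ratio of 1.39 whose interval (0.738 to 2.47) holds 1.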

How the data were processed

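Single-cell libraries were made from aorta dissected into 5 segments and digested with enzymes, with 5000 cells targeted per library, per the labels. The deposited values are raw UMI counts per gene and barcode, made by the authors with Cell Ranger (version 6.1.1, per the file headers). The submitters' processing notes name GRCm38, and Seurat without a step. Every barcode holds at least 500 UMIs.

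Cells needed 200 genes or more and no more than 20% of UMIs from mitochondrial genes. Scrublet marked doublets, which were removed (253 in DMSO, 440 in inhibitor); its automatic threshold in DMSO (0.659) marked 0, so the inhibitor library's threshold (0.214) served for both. Cells were clustered jointly (scanpy 1.11.5, 2000 variable genes without the 8 genes, lists or markers, 30 components, 15 neighbours, Leiden resolution 1), and clusters were named "-like" from at least 3 markers. The naming rule was set after the clusters were seen, and 1072 DMSO and 709 inhibitor cells stayed unnamed. UMIs were summed per class and library and divided by all UMIs of those cells (CPM). Intervals are exact at 95% (Poisson, or binomial for a ratio). They cover counting error only. No p-values were computed, because each group has 1 library. Calling was tested on simulated data.

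The 8 genes, the lists and the alternatives were chosen with earlier results of these data known. List genes are named when called in macrophage-like cells, or, elsewhere, from up to 4 called genes in each direction and list with the largest log2 ratio; examples were picked from these, and the heat shock genes were named after their values were seen. Likeness gives the 3 highest correlations of log2(CPM + 5), of which 1 for Mt2 is not reported here. Gene positions come from GENCODE M21 and promoters from RefSeq; Zbtb16 and Nr3c1 promoters were not used here. Alternatives to each choice are given in the closing section.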

Additional observations from a re-analysis of the deposited data

Results flagged for a closer look

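The log2 ratio of Tsc22d3 took opposite signs among the cell classes. It was 0.98 in fibroblast-like cells and 0.86 in Schwann-like cells, and -0.79 in dendritic-like cells. The fibroblast-like value was 0.31 with clusters weighted equally and 0.5 without cluster 3, neither of them a call. The difference between these classes was not tested, since each class has 1 library per group.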

How the results depend on the processing

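All 16 called pairs of gene and class were called again with doublets kept, at most 10% mitochondrial UMIs, at least 1000 genes per cell, a total without mitochondrial, ribosomal protein and heat shock genes, means over cells, Leiden resolutions of 0.5 and 2, or no minimum level. Centring on the median gene kept 15, equal cluster weights 8 (with 2 new calls) and a fold of 2 kept 5. Equal weights were given to clusters of at least 20 cells in each library. With equal weights the numbers higher were 0 in smooth muscle-like, 0 in fibroblast-like and 1 in macrophage-like cells, and those lower were 0 in smooth muscle-like and 1 in endothelial-like cells. In dendritic-like cells the lower call of Per1 was lost (ratio 1.22). At a fold of 2 the numbers higher were 0 in smooth muscle-like, 1 in fibroblast-like, 0 in endothelial-like and 0 in Schwann-like cells, and those lower 1, 0, 0 and 1 in smooth muscle-like, fibroblast-like, macrophage-like and dendritic-like cells. Leaving out clusters, chosen after seeing the data, gave 0 higher and 1 lower without cluster 12 (smooth muscle-like), 1 higher without cluster 3 (fibroblast-like), 1 higher and 2 lower without cluster 1 (macrophage-like), 2 lower without cluster 15 (endothelial-like) and 4 higher without cluster 22 (Schwann-like). The Fkbp5 log2 ratio in macrophage-like cells was 1.21 as a mean over cells, 0.75 with equal weights and 0.72 without cluster 1. That of Per1 in dendritic-like cells turned to 0.26 with equal weights and to 2.28 without cluster 13, which leaves 38 and 22 cells. Over all genes, equal weights took the number called higher from 218 to 140 in smooth muscle-like and from 322 to 153 in fibroblast-like cells, and the number lower in the latter from 491 to 273. In macrophage-like cells the number higher went from 220 to 159. The number lower went from 520 to 429 in smooth muscle-like, from 634 to 545 in endothelial-like and from 584 to 536 in dendritic-like cells. Numbers over all genes are not given for a fold of 2 or for clusters left out, so nothing is read from those counts of the 8 genes. Other causes were not tested. No paired analysis was possible because each group has 1 library.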
